A study of Mus musculus with 6 samples.

Results

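Plexins, semaphorins and neuropilins were followed in mouse fetal liver cells with and without induced Arid3a. The 10 genes described here are the plexins Plxna1, Plxna2, Plxna4, Plxnb2, Plxnc1 and Plxnd1, the semaphorins Sema4a, Sema4b and Sema4d, and the neuropilin Nrp1, out of 53801 genes in the count table. They were chosen by name with their fold changes in this comparison already known, so their values, intervals and calls in the fit over all genes are a description, not a test of the set, and no p-values are printed for them. Of the 10, 9 passed the filter on low counts and Nrp1 did not.

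Cells carried either a doxycycline-inducible Arid3a-FLAG transgene (3 libraries) or a doxycycline-inducible transgene named LUC in the labels (3 libraries). Arid3a is a DNA-binding protein with an ARID domain. Both groups came from embryos at E12.5-13.5 of a mouse strain that carries Cas9 and EGFP, driven by the CAG promoter, at the ROSA26 locus. Both also carried the guide sgGata1 and the miR-125b transgene, and both received doxycycline at 1 μg/mL for 48 h. In the titles the cells bear the name Gata1s, which stands for a shortened GATA1 protein that lacks its amino-terminal part. The labels do not say whether the 3 libraries of a group came from separate embryos or cultures, so the spread between them may be technical.

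Plexins are single-pass membrane receptors whose cytoplasmic part holds a GTPase-activating domain for small GTPases of the Ras and Rap type. Semaphorins, secreted or membrane-bound, are their ligands. Neuropilins are co-receptors that most secreted class 3 semaphorins need in order to signal through class A plexins. The family is best known from axon guidance and blood vessel growth, and Sema4d, also called CD100, is also known from T cells and platelets.

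Libraries held between 15728150 and 18249053 gene counts. Reads on the Arid3a construct numbered 3348, 3044 and 2758 with Arid3a-FLAG and 0 in each LUC library. On the principal components of log2 CPM (read counts normalised by edgeR to library size, with TMM factors), LUC library 2 stood apart along the second component, which held 24% of the variance. It was the lowest library for 6 of the 9 genes that passed the filter. Summed megakaryocyte markers were 6335 to 6786 CPM with Arid3a-FLAG and 5983 to 7439 CPM with LUC. In the test over all genes 2 of 8 were higher and 0 lower, beside 3.43% and 3.87% of all tested genes. The higher ones were Itgb3, at 682.4 to 754.6 CPM with Arid3a-FLAG and 326.5 to 423.9 CPM with LUC, and Gp9, at 86.3 to 97.7 CPM with Arid3a-FLAG and 49.1 to 68.7 CPM with LUC, while Pf4 and Itga2b made up most of the sum. The 5 hepatocyte markers together stayed between 16.3 and 20.2 CPM with Arid3a-FLAG and between 20.1 and 27.1 CPM with LUC, with Ttr at 0 in every library and nearly all of the sum from Afp.

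Promoter sequences are shown for Plxnb2, 1 of the genes that differed between the groups, and for the genes with a motif match. RefSeq windows on GRCm38.p6, from 250 bases before to 50 after a start, were found for 8 of the 10 genes, 15 windows in all. Plxna1 and Plxna4 are named only. Windows were searched on both strands. The letters AGATAA and the letters TGATAA stood for GATA factors. For Arid3a they were ATTAAA and also ATCAAA, and for ETS factors they were CCGGAAG and also CAGGAAG. Matches to GATA letters were in 1 of the 15 windows, to ETS letters in 2 and to Arid3a letters in 0, and no match overlapped another. Of all 32851 windows, 18.6% held a GATA match, 20.9% an ETS match and 22.9% an Arid3a match. The matches lie in Plxna2 (position -54 from the transcript start), in 1 window of Sema4b (-190, printed as its reverse complement, since the match is on the opposite strand) and in 1 window of Sema4d (-128). These 3 windows and the outer start of Plxnb2, which holds no match, are given 5′ to 3′ along the gene's strand, limited to the 250 bases before the start, with motif matches in capitals. They lie at chr1:194619579-194619828 (plus strand), chr7:80198338-80198587 (plus), chr13:51756684-51756933 (minus) and chr15:89180789-89181038 (minus).
Plxna2: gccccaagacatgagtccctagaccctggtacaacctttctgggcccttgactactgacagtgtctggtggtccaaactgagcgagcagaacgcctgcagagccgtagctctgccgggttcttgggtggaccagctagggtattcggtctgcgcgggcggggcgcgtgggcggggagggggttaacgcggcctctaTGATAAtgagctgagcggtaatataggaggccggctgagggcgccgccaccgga
Sema4b: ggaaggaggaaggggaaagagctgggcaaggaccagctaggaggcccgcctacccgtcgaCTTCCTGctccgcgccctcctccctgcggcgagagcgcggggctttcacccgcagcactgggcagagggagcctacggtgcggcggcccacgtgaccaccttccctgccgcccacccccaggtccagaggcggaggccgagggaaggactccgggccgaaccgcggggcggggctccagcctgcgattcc
Sema4d: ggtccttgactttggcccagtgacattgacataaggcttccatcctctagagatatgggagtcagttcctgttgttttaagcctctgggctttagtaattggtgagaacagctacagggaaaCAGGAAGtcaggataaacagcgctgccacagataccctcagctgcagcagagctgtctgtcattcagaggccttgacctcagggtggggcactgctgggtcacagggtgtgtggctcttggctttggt
Plxnb2: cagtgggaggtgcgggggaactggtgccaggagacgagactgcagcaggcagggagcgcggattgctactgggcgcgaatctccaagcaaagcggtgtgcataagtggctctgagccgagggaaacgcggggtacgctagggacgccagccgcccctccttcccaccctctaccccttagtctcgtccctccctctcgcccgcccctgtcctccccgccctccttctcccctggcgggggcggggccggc
The Plxnb2 window, with its 50 bases after the start, has 70.3% G and C and 27 CpG pairs, and the Sema4d window 52.0% and 2 CpG pairs. Medians over all windows were 52.7% and 7 CpG pairs. A match in these letters is not a binding site, and no match says only that these letters are not in this window.

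With Arid3a-FLAG the plexin Plxna4 was about 3 times as abundant as with LUC, while the class A plexins Plxna1 and Plxna2 did not pass the test. The plexin Plxnb2 was also higher, by a smaller factor. These 2 were the genes of the 9 past an adjusted p of 0.05 in edgeR's quasi-likelihood test over all 13631 tested genes, and both were higher. Over all tested genes 7.29% were called, 3.43% higher and 3.87% lower. The groups did not overlap for the same 2 of 9 genes, against 33.1% of all tested genes. The members' median log2 fold change was 0.22, and that of all tested genes -0.03. Nothing is read from these shares, because the genes were chosen with this comparison known.

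Plxna4 (ENSMUSG00000029765, chromosome 6, 32144268 to 32588192, minus strand, mm10) encodes plexin-A4, a receptor for class 6 semaphorins and, with neuropilin-1, for Sema3a. It had 19.6, 19.7 and 17.6 CPM in the Arid3a-FLAG libraries, against 7.22, 5.30 and 5.78 CPM in the LUC libraries. Every Arid3a-FLAG library lay above every LUC library. These CPM rest on 316, 339 and 281 counts with Arid3a-FLAG and on 125, 81 and 107 counts with LUC. On the log2 scale Arid3a-FLAG over LUC was 1.63 (SE 0.15, 95% interval 1.30 to 1.97), a 3.11-fold difference. With any 1 library left out it ran from 1.56 to 1.80 and stayed past the threshold. The antisense gene Plxna4os3 overlaps 110 bases of its exons, 0.78% of their length.

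Plxna1 (chromosome 6, 89316314 to 89362620) and Plxna2 (chromosome 1, 194618218 to 194816869) encode the class A receptors for secreted class 3 semaphorins bound to neuropilins, and also bind class 6 semaphorins. Plxna1 had 20.0, 19.6 and 15.4 CPM with Arid3a-FLAG and 16.2, 13.7 and 17.2 CPM with LUC. Plxna2 had 6.15, 4.24 and 5.09 CPM with Arid3a-FLAG and 4.28, 3.60 and 4.86 CPM with LUC. For both genes the groups overlapped. Their log2 fold changes were 0.22 (SE 0.14, 95% interval -0.10 to 0.54) and 0.27 (SE 0.21, -0.20 to 0.75), and neither passed. The antisense gene Gm26811 covers 10.7% of the Plxna1 exon length, so the Plxna1 value is uncertain if strand was not used in counting.

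Within class A the make-up shifted along with Plxna4. On levels per exon length, Plxna4 made up 34.9% ± 0.71 of the 4 class A plexins with Arid3a-FLAG and 16.2% ± 1.77 with LUC (SD, n = 3 each). Plxna1 made up 52.3% ± 3.97 with Arid3a-FLAG and 65.1% ± 2.38 with LUC. Its own level was not called changed. For class B the shares overlapped between the groups, with Plxnb2 at 51.6% ± 3.91 with Arid3a-FLAG and 48.8% ± 1.82 with LUC.

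Plxnb2 (chromosome 15, 89155549 to 89180788, minus strand) encodes plexin-B2, a receptor for class 4 semaphorins such as Sema4c and Sema4d. It had 41.4, 39.6 and 37.6 CPM with Arid3a-FLAG, against 27.5, 26.4 and 29.8 CPM with LUC. The groups did not overlap, and each was narrow. The difference was 0.50 on the log2 scale (SE 0.10, 95% interval 0.28 to 0.72), or 1.42-fold. Its size held with 1 library left out (0.47 to 0.58), but it was no longer past the threshold without Arid3a-FLAG library 1 (0.47), Arid3a-FLAG library 2 (0.50) or LUC library 1 (0.51).

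Plxnc1 (chromosome 10, 94790866 to 94944835) encodes plexin-C1, the receptor for Sema7a. It had 105.7, 119.6 and 90.1 CPM with Arid3a-FLAG and 89.4, 76.8 and 98.2 CPM with LUC. The lowest Arid3a-FLAG library lay below the highest LUC library. The log2 fold change of 0.25 (SE 0.12, 95% interval -0.02 to 0.53) did not pass.

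Plxnd1 (chromosome 6, 115954811 to 115995005) encodes plexin-D1, which binds Sema3e without a neuropilin and is known from endothelium. It had 27.5, 32.5 and 35.8 CPM with Arid3a-FLAG and 33.3, 33.5 and 46.9 CPM with LUC. The groups overlapped, and LUC library 3 was the highest. The difference of -0.25 (log2, SE 0.15, 95% interval -0.58 to 0.09) did not pass, and was -0.036 without LUC library 3.

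**Figure D1:**
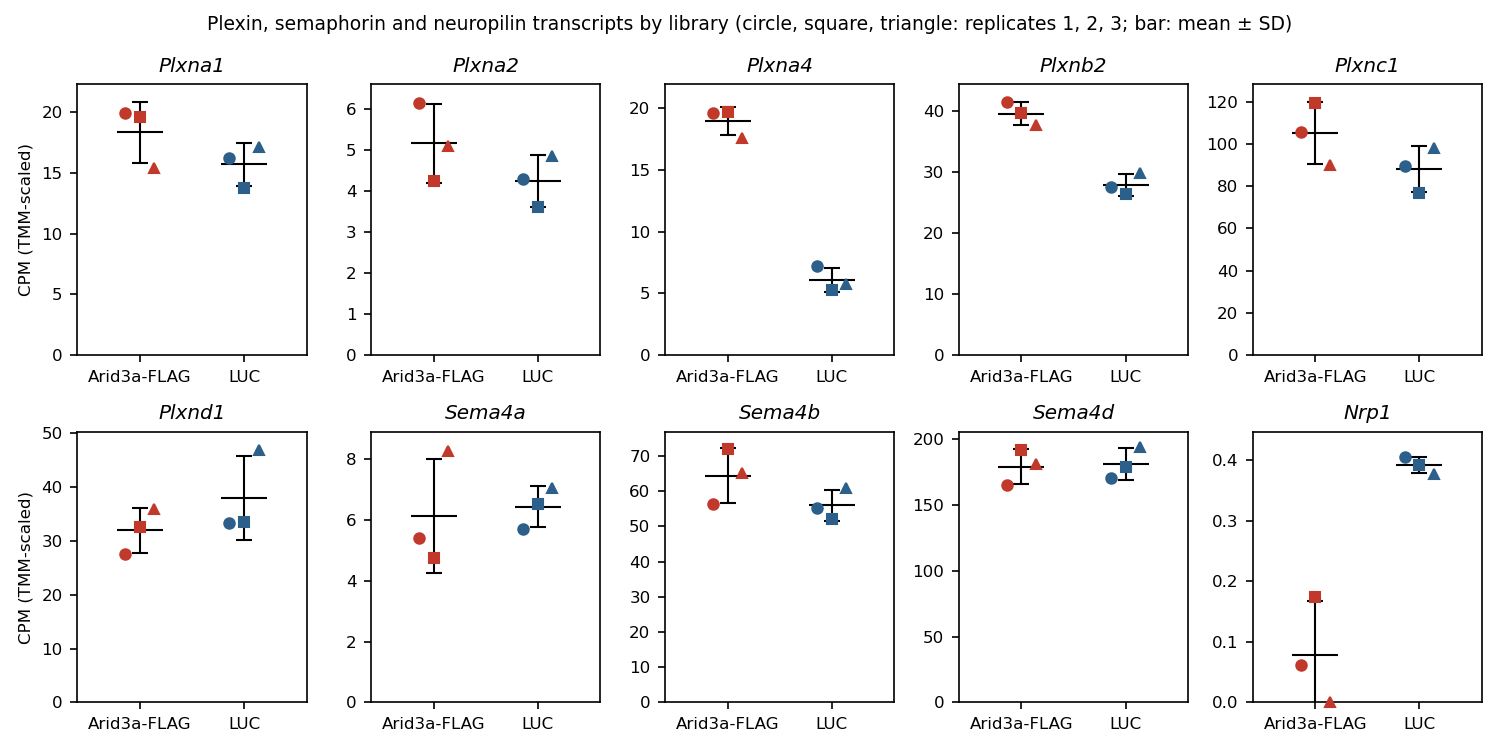
TMM-scaled CPM of each of the 10 genes in the 3 Arid3a-FLAG and 3 LUC libraries. Points are libraries, the horizontal line and bar are mean ± SD, and each panel has its own axis from 0. Plxna4 sits at 17.6 to 19.7 CPM with Arid3a-FLAG, above 5.30 to 7.22 CPM with LUC, and Plxnb2 is also separated, while Nrp1 lies under 0.5 CPM throughout.

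The 3 listed class 4 semaphorins did not move past the threshold. They are transmembrane ligands that can also be shed. Sema4d (chromosome 13, 51685529 to 51793747), the ligand of plexin-B1 and of CD72, had 164.7, 191.3 and 181.2 CPM with Arid3a-FLAG and 170.2, 179.0 and 194.2 CPM with LUC. The ranges lay almost on top of each other, at -0.016 on the log2 scale (SE 0.095, 95% interval -0.23 to 0.19). Sema4b (chromosome 7, 80186841 to 80226527) had 56.4, 71.9 and 65.1 CPM with Arid3a-FLAG and 55.1, 52.1 and 60.9 CPM with LUC. Its log2 fold change was 0.20 (SE 0.11, -0.04 to 0.45). Sema4a (chromosome 3, 88435959 to 88461182), a ligand known from dendritic cells and of plexin-D1, had 5.40, 4.76 and 8.29 CPM with Arid3a-FLAG and 5.72, 6.54 and 7.07 CPM with LUC. The log2 fold change was -0.07 (SE 0.23, -0.57 to 0.43), and its sign turned with the libraries used, being -0.34 without Arid3a-FLAG library 3 and 0.087 without Arid3a-FLAG library 2.

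Nrp1 (chromosome 8, 128358604 to 128503363) encodes neuropilin-1, a co-receptor for class 3 semaphorins and for VEGF. Reads assigned to it numbered 1, 3 and 0 with Arid3a-FLAG and 7, 6 and 7 with LUC, too few for the test. All LUC libraries were above all Arid3a-FLAG libraries, at under 0.5 CPM in each. The ratio of the summed counts scaled for library size, 4 counts with Arid3a-FLAG to 20 with LUC, was 0.208, with an exact 95% interval of 0.0516 to 0.620 that covers counting error only. With no filter on low counts Nrp1 did not pass either. The other neuropilin, Nrp2, had 0 counts in all 6 libraries.

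Levels can be compared between genes as CPM per kilobase of exon. Of the 10 genes Sema4d was highest, at 23.3 ± 1.75 with Arid3a-FLAG and 23.6 ± 1.58 with LUC (SD, n = 3 each). Plxnc1 followed at 12.6 ± 1.76 with Arid3a-FLAG and 10.6 ± 1.28 with LUC, and Sema4b at 11.4 ± 1.38 with Arid3a-FLAG and 9.92 ± 0.79 with LUC. The ranges of Plxnc1 and Sema4b overlapped in both groups, so their order is not fixed. Plxnb2 (5.12 ± 0.25) and Plxnd1 (4.38 ± 0.58) came next with Arid3a-FLAG and overlapped there, whereas with LUC Plxnd1 (5.19 ± 1.06) lay above Plxnb2 (3.61 ± 0.23) in every library. Plxna1 stood at 2.03 ± 0.28 with Arid3a-FLAG and 1.74 ± 0.20 with LUC. Plxna4 reached 1.35 ± 0.08 with Arid3a-FLAG, overlapping Sema4a at 1.14 ± 0.35. With LUC, Plxna4 was at 0.43 ± 0.07, below Sema4a at 1.19 ± 0.13 in every library. Plxna2 was at 0.30 ± 0.06 with Arid3a-FLAG and 0.25 ± 0.04 with LUC, and Nrp1 was lowest in both groups.

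**Figure D2:**
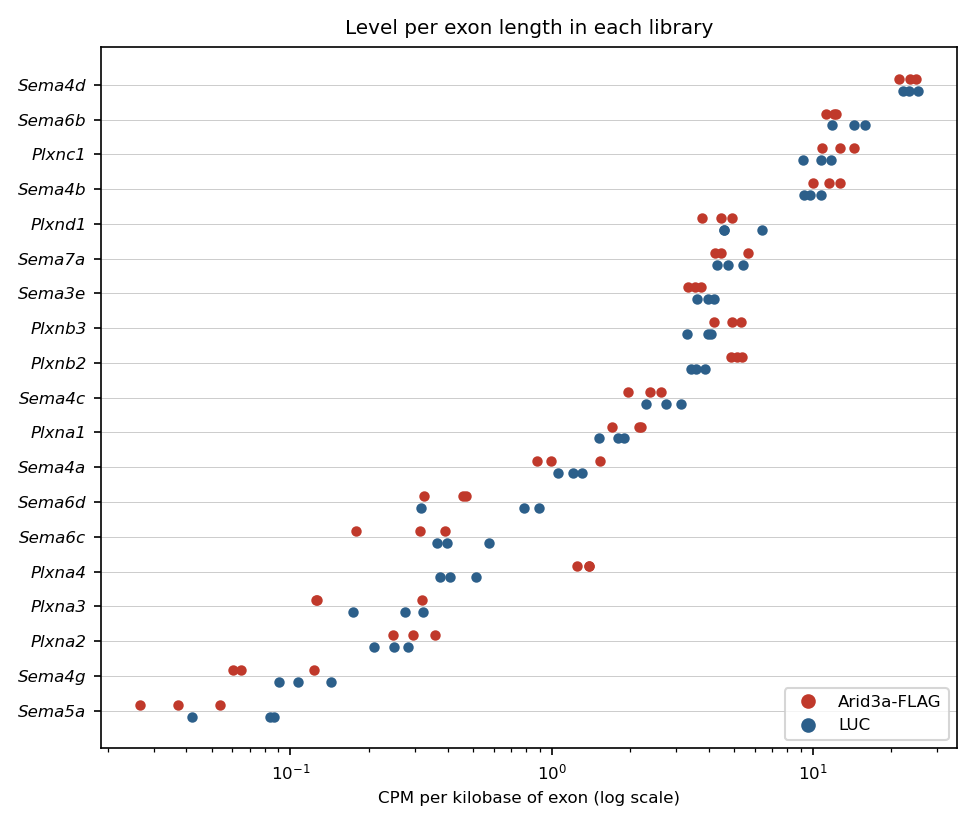
CPM per kilobase of exon, on a log axis, of the 19 plexin and semaphorin genes that passed the filter, with 1 point per library, Arid3a-FLAG above LUC in each row. Genes are ordered by their LUC mean. Sema4d is at the top in both groups, and the Arid3a-FLAG points of Plxna4 lie to the right of its LUC points.

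The other genes of the 3 families were taken by name, 21 in all, and 10 of them passed the filter. In edgeR none of the 10 passed over all genes, 1 lay above and 0 lay below LUC with an unadjusted p under 0.05 (11.7% and 13.9% of all tested genes), and DESeq2 and limma-voom called 0. Their median log2 fold change was -0.35, beside -0.03 for all tested genes. Sema4g reached the filter's level in 3 LUC libraries and 1 Arid3a-FLAG library, and Sema5a in 3 LUC and 2 Arid3a-FLAG libraries. Neither would have passed the filter on the Arid3a-FLAG libraries alone. Plxnb3, a class B plexin that binds Sema5a, was the 1 with an unadjusted p under 0.05. It had 27.1, 34.5 and 31.9 CPM with Arid3a-FLAG and 25.8, 21.4 and 26.4 CPM with LUC. The groups did not overlap, but the log2 fold change of 0.34 (SE 0.13) had an adjusted p of 0.124 in edgeR. The remaining plexin tested, Plxna3, had 16, 17 and 40 counts with Arid3a-FLAG and 44, 21 and 40 counts with LUC (-0.45, edgeR adjusted p = 0.522).

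The 8 tested semaphorins outside the listed genes were below 0 on the log2 fold change scale, and none passed. Of all 13631 tested genes 7454 were below 0 as well, and the sign of Sema7a turned with the libraries used. Sema6b, a transmembrane ligand of class A plexins, had 48.7, 47.9 and 44.4 CPM with Arid3a-FLAG and 62.9, 47.1 and 56.8 CPM with LUC (-0.24, edgeR adjusted p = 0.213). Sema6d, a ligand of plexin-A1, had 4.84, 3.43 and 4.96 CPM with Arid3a-FLAG and 9.42, 3.34 and 8.31 CPM with LUC (-0.68, edgeR adjusted p = 0.226). LUC library 2 was the low one for both. Without it the genes called lower over all genes went from 527 to 1095. Both then passed in edgeR (Sema6b -0.33, adjusted p = 0.0178, and Sema6d -0.996, adjusted p = 0.0065). The others were Sema3e (-0.15), Sema4c (-0.23), Sema4g (-0.47), Sema5a (-0.86), Sema6c (-0.60) and Sema7a (-0.013), with edgeR adjusted p from 0.209 for Sema5a to 0.966 for Sema7a. The 11 below the filter were Nrp2, Plxnb1, Sema3a, Sema3b, Sema3c, Sema3d, Sema3f, Sema3g, Sema4f, Sema5b and Sema6a, none with more than 9 counts in any library.

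Known ligand and receptor pairs were measured as follows, in CPM per kilobase. Sema7a was at 4.77 ± 0.76 with Arid3a-FLAG and 4.81 ± 0.57 with LUC, beside its receptor Plxnc1 (12.6 with Arid3a-FLAG and 10.6 with LUC). Sema3e was at 3.53 ± 0.20 with Arid3a-FLAG and 3.92 ± 0.29 with LUC, beside Plxnd1 (4.38 with Arid3a-FLAG and 5.19 with LUC). Sema4d had its receptor Plxnb1 at only 3, 2 and 4 counts with Arid3a-FLAG and 2, 1 and 6 counts with LUC, while Plxnb2 and Plxnb3 were both measured at several CPM per kilobase. Of the neuropilin-dependent class 3 semaphorins, none passed the filter, and neither did either neuropilin.

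**Figure D3:**
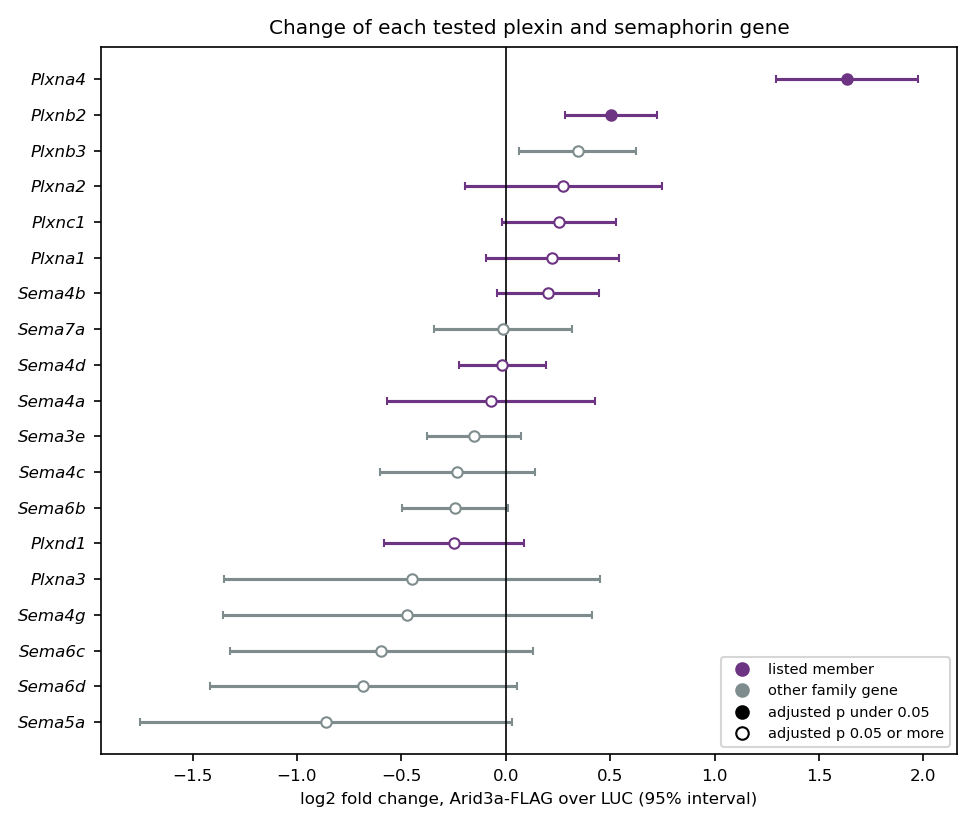
Log2 fold change of Arid3a-FLAG over LUC with its 95% interval for the 19 tested genes of the families, with listed genes in purple and the others in grey, and filled points past an adjusted p of 0.05. Plxna4 at 1.63 and Plxnb2 at 0.50 are the filled points, and the intervals of the other genes, except Plxnb3, include 0.

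Next to the receptors, a list of 36 cytoplasmic partners and effectors of plexins was examined, and 29 passed the filter. Of these, 4 rose, 3 fell and 22 did not pass in edgeR, beside 3.43% called higher and 3.87% lower over all genes. With an unadjusted edgeR p under 0.05, 8 lay above and 7 below LUC (11.7% and 13.9% of all tested genes). DESeq2 called 6 higher and 4 lower (771 and 790 over all genes). The limma-voom calls were 5 higher and 3 lower (486 and 525 over all genes). Of the 4 that rose, Mical2 and Farp2 were under the filter's level in every LUC library and passed the filter only through Arid3a-FLAG, where they are high. The list's median log2 fold change was -0.03, equal to that of all tested genes at this rounding. With Arid3a-FLAG library 1, Arid3a-FLAG library 2 or LUC library 1 left out, 1 rose and 1 fell. Leaving out Arid3a-FLAG library 3 gave 2 that rose and 3 that fell. Leaving out LUC library 2 gave 7 and 4, and leaving out LUC library 3 gave 4 and 1. The calls over all genes moved as well. They were 115 higher and 118 lower of 14001 without Arid3a-FLAG library 1, and 1191 and 1095 of 13981 without LUC library 2.

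MICAL enzymes oxidise actin, and in the fly Mical acts downstream of plexin A. Mical2 had 1.99, 2.90 and 3.01 CPM with Arid3a-FLAG and 0.289, 0.589 and 0.540 CPM with LUC, a difference of 2.47 on the log2 scale (SE 0.36, edgeR adjusted p = 0.0037). The groups lay far apart, although the LUC value rests on 5, 9 and 10 counts. Mical3 had 39.7, 43.3 and 49.0 CPM with Arid3a-FLAG and 29.6, 27.0 and 34.1 CPM with LUC (0.54, SE 0.12, edgeR adjusted p = 0.025). Mical1, named here after its values were seen, lay the other way without passing (-0.63, edgeR adjusted p = 0.078). It was called lower by DESeq2, with no filter, with the replicate block and without Arid3a-FLAG library 3. Smpd2 on the opposite strand overlaps 15% of the Mical1 exon length, so the value is uncertain if strand was not used in counting.

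The GTPase exchange factors of the FARP pair moved apart. Farp2, which plexin-A1 releases when it is activated, had 2.17, 1.74 and 0.879 CPM with Arid3a-FLAG and 0.462, 0.458 and 0.432 CPM with LUC (1.81, SE 0.42, edgeR adjusted p = 0.028). Stk25 on the opposite strand overlaps 19.4% of the Farp2 exon length, so the value is uncertain, and with at least 1 CPM asked for in 3 libraries Farp2 was not tested. Farp1 was at 2.53 ± 0.58 CPM with Arid3a-FLAG and 5.26 ± 0.65 CPM with LUC, a difference of -1.06 on the log2 scale (SE 0.23, edgeR adjusted p = 0.024). Arhgef12 of the same list, like Mical1 named after its values were seen, lay higher without passing (0.70, SE 0.20, edgeR adjusted p = 0.057). It was called higher by DESeq2, by limma-voom, with no filter, with the replicate block, and without LUC library 2 or LUC library 3.

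Small GTPases on which plexins act were also among the calls. Rras, which encodes R-Ras, had 22.7, 24.6 and 28.3 CPM with Arid3a-FLAG and 38.3, 45.0 and 43.0 CPM with LUC, so that every Arid3a-FLAG library was lower (-0.74, SE 0.12, edgeR adjusted p = 0.0051). Its relative Rras2 was at 4.70 ± 1.20 CPM with Arid3a-FLAG and 8.52 ± 0.35 CPM with LUC (-0.86, SE 0.21, edgeR adjusted p = 0.032). Rap2a was at 66.8 ± 7.20 CPM with Arid3a-FLAG and 49.4 ± 5.51 CPM with LUC (0.43, SE 0.12, edgeR adjusted p = 0.047), and its call was lost with upper quartile factors (adjusted p = 0.0588). Calls of Mical2 and Rras stayed with each library left out in turn. Those of Mical3, Farp1, Farp2 and Rap2a were lost in 4 of 6 such fits and that of Rras2 in 5 of 6, with edgeR adjusted p up to 0.096, 0.118, 0.135, 0.206 and 0.136 in that order.

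The most abundant genes of the list did not pass. The actin-severing protein gene Cfl1 was at 1484 ± 23.1 CPM with Arid3a-FLAG and 1705 ± 356.5 CPM with LUC (-0.20). LUC library 2 had 2114 CPM of Cfl1, against 1547 and 1456 CPM in LUC libraries 1 and 3, and without it the difference was -0.0032. Snx32 on the opposite strand overlaps 16.5% of the Cfl1 exon length, so the Cfl1 value is uncertain if strand was not used in counting. The GTPase Rap1b was at 1850 ± 99.6 CPM with Arid3a-FLAG and 1454 ± 262.0 CPM with LUC (0.35, edgeR adjusted p = 0.144). Rap1b passed without LUC library 2 (0.52, adjusted p = 0.00054), as well as in DESeq2 and with no filter. Rac2 (-0.20) and Rac1 (0.01), the GTPases whose active form binds plexins, had edgeR adjusted p of 0.230 and 0.963, and Daglb on the opposite strand overlaps 51.4% of the Rac1 exon length.

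**Figure D4:**
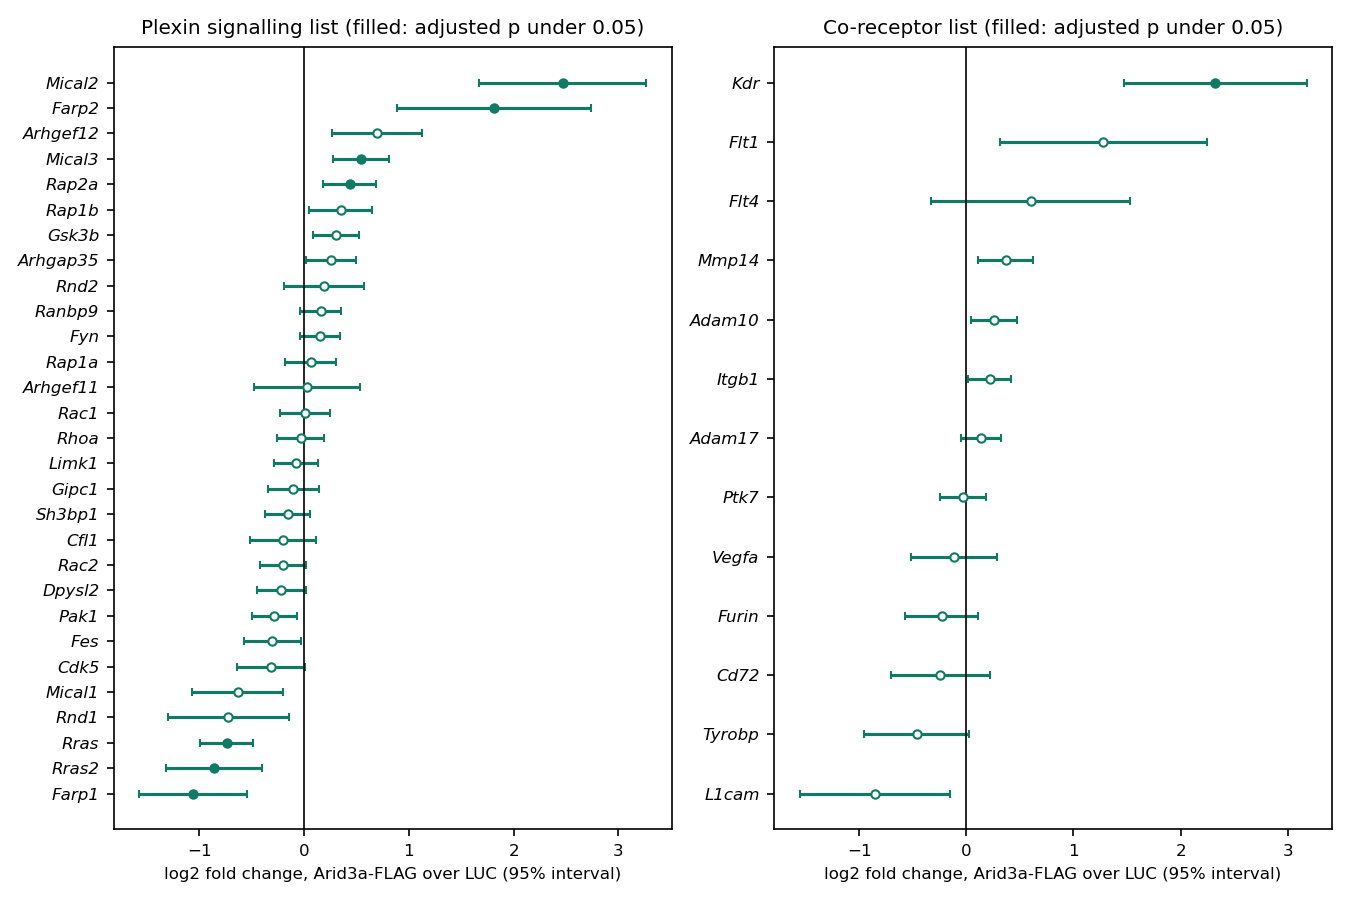
Log2 fold change of Arid3a-FLAG over LUC with its 95% interval for the 29 tested genes of the plexin signalling list (left) and the 13 of the co-receptor list (right), with filled points past an adjusted p of 0.05. In the signalling list Mical2, Farp2, Mical3 and Rap2a are filled to the right of 0 and Rras, Rras2 and Farp1 to the left, and in the co-receptor list Kdr is the filled point.

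Co-receptors, alternative receptors and sheddases made up a second list of 23 genes, 13 of them past the filter. Of these 1 rose, 0 fell and 12 did not pass in edgeR, beside 3.43% called higher and 3.87% lower over all genes. With an unadjusted edgeR p under 0.05, 5 lay above and 1 below LUC (11.7% and 13.9% of all tested genes). DESeq2 called 2 and limma-voom 1. The median log2 fold change was 0.14. With LUC library 3 left out 3 rose (Adam10, Kdr and Mmp14). With LUC library 2 left out 2 rose (Itgb1, Kdr) and 2 fell (L1cam, Vegfa). With LUC library 1 left out 1 rose (Kdr) and 1 fell (Trem2). Over all genes these fits gave 612 higher and 437 lower, 1191 and 1095, and 189 and 239, in that order. Trem2 had 1, 0 and 1 counts with Arid3a-FLAG and 0, 11 and 11 counts with LUC. It did not pass the filter with all libraries. Without LUC library 1, where it was at 0, it passed the filter only through LUC libraries. With all libraries the gene that rose was Kdr, a VEGF receptor with which neuropilin-1 can associate. It had 1.86, 2.03 and 1.44 CPM with Arid3a-FLAG and 0.462, 0.196 and 0.378 CPM with LUC, 2.32 on the log2 scale (SE 0.39, edgeR adjusted p = 0.0070). The groups did not overlap, on 30, 35 and 23 counts with Arid3a-FLAG and 8, 3 and 7 counts with LUC, and the call stayed with each library left out in turn. Kdr was under the filter's level in every LUC library and so passed the filter only through Arid3a-FLAG, where it is high, as did Flt1. The abundant genes of this list were the semaphorin 7a receptor chain Itgb1 at 381.3 ± 9.50 CPM with Arid3a-FLAG and 327.5 ± 20.9 CPM with LUC (0.22), the proteases Adam10 (0.26) and Furin (-0.23), and the neuropilin ligand Vegfa (-0.12), with edgeR adjusted p of 0.162, 0.133, 0.373 and 0.726. Met, a receptor that associates with class B plexins, did not pass the filter, and Erbb2 had 0 counts.

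Genes whose values followed Plxna4 most closely were found by centring log2 CPM of each gene on its mean over the 6 libraries and taking the smallest root-mean-square difference. These were Kel (0.0925), a blood group protease, Cnr1 (0.130), a cannabinoid receptor, and Nxpe4 (0.176). Kel was at 34.8 CPM with Arid3a-FLAG and 11.6 CPM with LUC, Cnr1 at 86.3 CPM with Arid3a-FLAG and 27.9 CPM with LUC, and Nxpe4 at 1.03 CPM with Arid3a-FLAG and 0.254 CPM with LUC. The LUC mean of Nxpe4 lay under the filter's level, so Nxpe4 passed the filter mainly through Arid3a-FLAG, where it is high. The likeness is over 6 libraries in 2 groups and follows mainly the difference between the groups.

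Markers of cells known for plexins were read beside these values. In bulk RNA, fewer cells of a type and less RNA per cell cannot be told apart. The 7 neuron markers summed to 0.502 to 0.813 CPM with Arid3a-FLAG and 0.231 to 0.785 CPM with LUC, with Syt1 and Stmn2 at 0 and none past the filter. The 7 endothelial markers summed to 152.0 to 177.0 CPM with Arid3a-FLAG and 165.3 to 194.7 CPM with LUC, of which Pecam1, also a platelet gene, was the larger part. Cdh5 and Cldn5 were at 0 in every library, and 1 of the 4 tested endothelial markers, Kdr, rose. The 8 monocyte and macrophage markers summed to 13.97 to 15.9 CPM with Arid3a-FLAG and 8.26 to 8.78 CPM with LUC, with Ly86 at 0. Of these, 1 of 3 tested was higher. It was Csf1r, at 7.14 to 8.29 CPM with Arid3a-FLAG and 1.85 to 3.18 CPM with LUC. Adgre1 and Cd68 were tested and not called. The 7 mast cell and basophil markers summed to 753.1 to 1286 CPM with Arid3a-FLAG and 1704 to 1982 CPM with LUC, with 3 of 6 tested lower. The 8 lymphoid markers summed to 7.45 to 8.35 CPM with Arid3a-FLAG and 30.2 to 41.9 CPM with LUC, with 2 of 3 tested lower. Beside these marker calls, 3.43% of all tested genes were called higher and 3.87% lower. The part of these lineage markers in the values of Plxna4, Plxnb2 or the other genes was not tested.

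**Figure D5:**
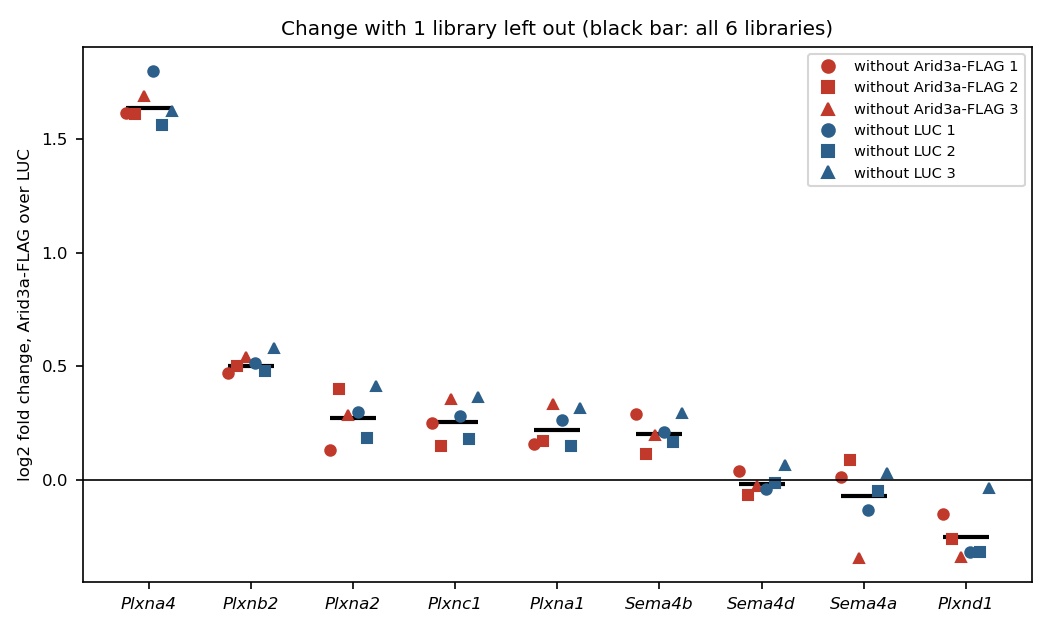
Log2 fold change of Arid3a-FLAG over LUC of the 9 tested listed genes with each of the 6 libraries left out in turn (points) and with all 6 (black bars). Plxna4 stays between 1.56 and 1.80 and Plxnb2 between 0.47 and 0.58, while Sema4a and Sema4d lie on both sides of 0.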

How the data were processed

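RNA was sequenced from 6 libraries of mouse fetal liver cells. The values are raw read counts per gene, as deposited by the authors, as whole numbers that were not normalized. Tools named in the submitters' processing notes are featureCounts, HISAT2 2.0.5 and fastp, and the build is mm10. Their settings, the annotation and the strand used in counting are not given in the sources used. Of 53802 entries, the Arid3a construct was kept out of library sizes and tests. Gene names and positions were taken by identifier from GENCODE M21 (GRCm38, which is mm10), where 95 identifiers had no match. Without strand, reads of overlapping antisense genes cannot be told apart.

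The test was edgeR 4.0.16 in R 4.3.3: filterByExpr, TMM factors, the quasi-likelihood F test with group as the only term, two-sided, and Benjamini-Hochberg adjustment over 13631 genes at a threshold of 0.05. CPM use TMM-scaled library sizes, and intervals are 95%. The SE is the log2 fold change over the root of F. The script was tested on simulated data. Alternatives tried were DESeq2 1.42.0, limma-voom (limma 3.58.1), upper quartile or RLE factors, a filter of 1 CPM in at least 3 libraries or none, a replicate block, and leaving out each library. The members and lists were chosen with earlier results of these data known. Named were all listed and tested family genes, list genes past the threshold, the 4 most abundant of each list, and the 3 genes most like Plxna4. Mical1 and Arhgef12 were added after their values were seen. Marker lists for erythroid, neutrophil and stromal cells were also summed: erythroid 273.6 to 356.9 CPM with Arid3a-FLAG and 192.5 to 246.3 with LUC, neutrophil 9.12 to 20.4 CPM with Arid3a-FLAG and 15.7 to 18.5 with LUC, and stroma 3.37 to 5.84 CPM with Arid3a-FLAG and 7.59 to 11.4 with LUC.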

Additional observations from a re-analysis of the deposited data

How the results depend on the processing

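All 9 tested listed genes kept their side of the threshold under RLE and upper quartile factors, no filter, the 1 CPM filter, DESeq2, limma-voom and the replicate block. Over all genes, 467 were called higher and 527 lower. DESeq2 called 771 higher, and with no filter on low counts 869 were higher and 1076 lower. With no filter 1 other family gene was lower (Sema6d), and in the co-receptor list 2 were higher (Kdr, Mmp14) and 2 lower (L1cam, Trem2). Trem2 had no more than 11 counts in any library. DESeq2 called 2 co-receptor genes higher (Kdr, Mmp14). With 1 library left out, the counts over all genes ran from 115 to 1191 higher and from 118 to 1095 lower, lowest without Arid3a-FLAG library 1 and highest without LUC library 2. The listed genes called higher ran from 1 to 2, other family genes called lower from 0 to 2, signalling genes from 1 to 7 higher and from 1 to 4 lower, and co-receptor genes from 1 to 3 higher and from 0 to 2 lower. Among the genes recomputed one by one (all tested family genes, and of both other lists those called and the 4 most abundant), signs turned for 5, of which Vegfa was called lower without LUC library 2 and the others were never called. With upper quartile factors Rac1 was -0.0049, and with no filter Sema4d was 3.4e-05 and Sema7a 0.0020. With 1 library left out the log2 fold changes ran from -0.34 to 0.087 for Sema4a, from -0.065 to 0.066 for Sema4d, from -0.15 to 0.11 for Sema7a, from -0.019 to 0.14 for Rac1 and from -0.33 to 0.060 for Vegfa. The cause was not tested. Same-numbered libraries did not deviate together (correlations of -0.103, -0.115 and 0.125), so the numbers were not taken to pair them. The replicate block gave 410 higher and 530 lower over all genes, and 5 higher and 4 lower in the signalling list. With all libraries, the filter removed genes that reached about 10 counts in fewer than 3 libraries, Nrp1 among them.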
